A study of Homo sapiens with 6 samples.

Results

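MYC and 42 genes of polyamine synthesis and ribosome production were followed in OE33 cells exposed to APX2009. Members were chosen by name and function, with earlier results of these data known, and comprise MYC, its target ODC1, 7 genes of RNA polymerase I transcription, 9 of small nucleolar ribonucleoproteins (snoRNPs), 10 of small subunit processing, 11 of large subunit processing and 4 nucleolar proteins that act at several steps. All 43 symbols were found among the 58051 genes of the deposited count table, and all 43 passed the filter on low counts, among 14773 genes tested.

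OE33 is an established human cell line from an oesophageal adenocarcinoma and is labelled epithelial. RNA sequencing covered 3 libraries of cells given 15 µM APX2009 for 24 h and 3 libraries of untreated cells, which the series describes as independent biological replicates. APX2009 blocks the redox function of APE1, a DNA repair enzyme that also keeps transcription factors in a reduced, active form. The control was untreated and no vehicle is named, both groups are 1 parental cell line, and RNA was selected by its poly(A) tail, so ribosomal RNA itself was not measured.

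MYC is a transcription factor that binds the E-box CACGTG together with its partner MAX, and genes of ribosome production are among its best known targets. Ribosomes are built in the nucleolus. RNA polymerase I makes a long ribosomal RNA precursor, snoRNPs modify and help cleave it, and separate sets of assembly factors turn it into the small and the large subunit. Growing tumour cells depend on this pathway, and levels of these mRNAs are often read as an output of MYC.

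Gene counts ran from 21158750 to 26111656 per library in APX2009 cells and from 22443569 to 25093753 in untreated cells. The treated and untreated libraries lay on opposite sides of the first principal component (60.8% of variance). APX2009 replicate 1 stood apart on the second. It had 25015 genes detected, against 22446 and 21845 in APX2009 replicates 2 and 3, and 4.12% mitochondrial counts, against 2.25% in each of them and 2.62%, 0.943% and 1.33% in untreated replicates 1 to 3. Of the 6 fibroblast markers, COL3A1, DCN and COL1A2 had 48, 42 and 26 counts in APX2009 replicate 1 and 0 in the other 5 libraries, while COL1A1 had 205 to 383 counts in all 6. The summed level of the fibroblast markers was 3.56 to 7.46 TPM (transcript level per length, scaled to one fixed total per library) in APX2009 cells and 3.42 to 4.91 TPM in untreated cells, that of 4 endothelial markers 0.03 to 0.81 and 0.02 to 0.18 TPM in APX2009 and untreated cells, and that of 5 leukocyte markers 5.48 to 7.90 and 3.95 to 4.91 TPM. CD3E had no count in any library, and CD68, which is not limited to leukocytes, was 2.28-fold higher in APX2009 cells (edgeR adjusted p = 0.00513). The epithelial markers were abundant, at 18014 to 24180 TPM in APX2009 cells and 34667 to 38057 TPM in untreated cells, and KRT8, KRT18, KRT19 and CDH1 were lower in APX2009 cells while EPCAM did not pass the test. The part of these differences in the results below was not tested, and values without APX2009 replicate 1 are given where a member's call or a count moved most.

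The E-boxes near member start sites are shown first, since CACGTG is the motif that MYC and MAX are known to bind. RefSeq start site windows (GRCh38.p14, 250 bases before to 50 after each start) were held for 35 of the 43 members. CACGTG, which reads the same on both strands, stood in a window of 16 of the 35 (45.7%), against 12.8% of the 10228 tested genes with a window and 8.77% of all 27305 genes with one. In 17 of the 18 occurrences among members the motif began between 50 bases before the start and the window's end, against 36.9% of 2821 occurrences in all windows. The stretches below belong to the 10 members that both hold the motif and changed with APX2009 (edgeR). They run 5′ to 3′ on the gene's strand, with the motif in capitals and up to 12 bases on each side.
NOP2, chr12:6568242-6568268, minus strand: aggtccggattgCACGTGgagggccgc
ODC1, chr2:10447990-10448019, minus strand: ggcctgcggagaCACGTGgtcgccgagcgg
UTP20, chr12:101280083-101280112, plus strand: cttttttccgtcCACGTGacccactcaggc
MRTO4, chr1:19251807-19251836, plus strand: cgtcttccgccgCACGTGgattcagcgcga
BYSL, chr6:41921515-41921544, plus strand: ttcttcagtcccCACGTGcgatccttcccg
MYBBP1A, chr17:4555340-4555369, minus strand: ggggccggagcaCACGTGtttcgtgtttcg
NOP14, chr4:2963374-2963403, minus strand: tccgcggcccggCACGTGtcttagggtagc
PES1, chr22:30591880-30591909, minus strand: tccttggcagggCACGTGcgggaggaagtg
DDX21, chr10:68956604-68956633, plus strand: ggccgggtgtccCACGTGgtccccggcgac
RRP9, chr3:51941892-51941921, minus strand: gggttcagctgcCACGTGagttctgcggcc

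The first 9 of these genes were lower in APX2009 cells and RRP9 was higher. The motif began 35 bases after the start site in NOP2, 5 after in ODC1, 10 before in UTP20 and 5 before in RRP9. ODC1 held another, not printed, that began 29 bases before the start. By role, 4 of 7 snoRNP genes, 5 of 9 small subunit genes and 4 of 9 large subunit genes with a window held it. None of the 5 RNA polymerase I genes with a window did (POLR1A, POLR1B, POLR1C, RRN3 and UBTF), and POLR1E and TCOF1 had no window. These are too few genes to set against the 12.8% of all tested genes. Among members it stood in 9 of 17 that were lower and in 6 of 17 that did not pass. Over all tested genes the share was 13.8% of lower, 12.6% of higher and 12.6% of uncalled genes. A match is a description of these letters and not a measured binding site.

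**Figure D1:**
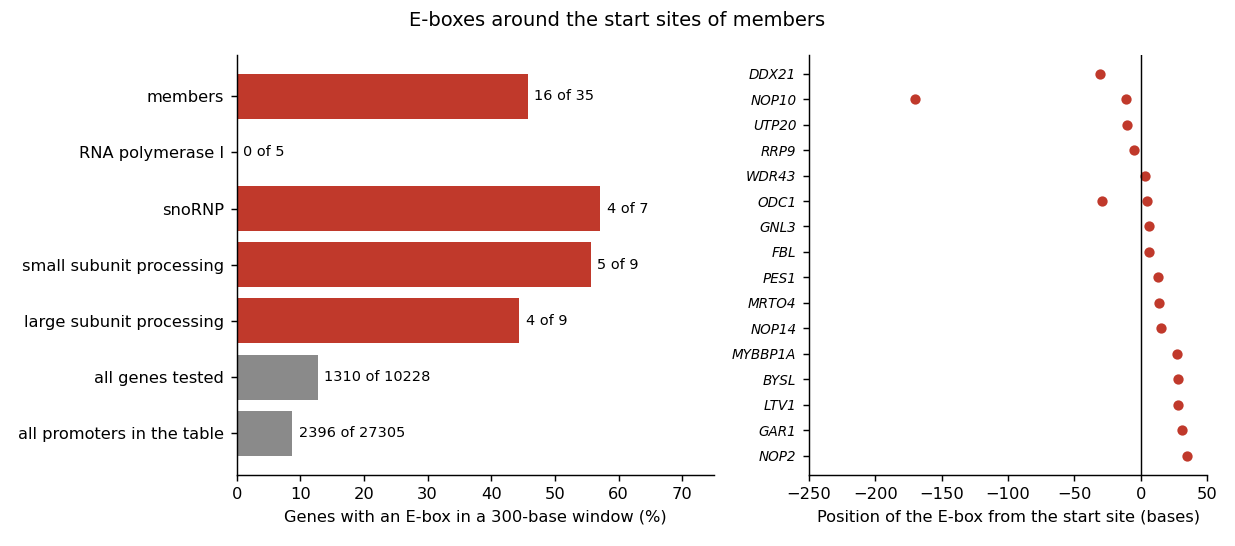
Left, the share of genes with an E-box in a RefSeq window of 250 bases before to 50 after a start site, for members (red, with 4 of their roles) and for all genes (grey), with counts beside the bars. Right, the position of each E-box in 16 members relative to the start site at 0. Most E-boxes of members lay within 50 bases of the start. None of the 5 RNA polymerase I genes with a window held one, too few genes to set against the 12.8% of all tested genes.

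The question put by the study is which transcripts follow APE1 redox activity, and here it was asked of MYC and the ribosome pathway. In APX2009 cells 21 of 43 members were lower (48.8%) and 1 was higher (2.33%), where 17.4% of all tested genes were lower and 17.2% higher (edgeR quasi-likelihood test, Benjamini-Hochberg adjusted p under 0.05, 34.7% called in either direction). The decreases were small, from 1.14-fold in DDX21 to 1.79-fold in WDR74, and only WDR74 and POLR1A passed 1.5-fold. The median log2 change of the 43 members was -0.19, against 0.02 over all genes tested, and 31 of 43 had a negative log2 change, against 48.2% of all genes tested. Between replicates the median coefficient of variation of the members was 5.90% in APX2009 cells and 3.10% in untreated cells.

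Lower members were found among every role. They made up 4 of 7 RNA polymerase I genes (median log2 change -0.24), 3 of 9 snoRNP genes (-0.05), 4 of 10 small subunit genes (-0.22), 7 of 11 large subunit genes (-0.24) and 2 of 4 multi-step nucleolar genes (-0.18). The roles were not tested against each other. Values in APX2009 cells lay wholly below those in untreated cells in 27 members and wholly above in 5, 74.4% in all, where 49.4% of all tested genes had groups apart, 25% below and 24.5% above. Without APX2009 replicate 1, 23 members were lower and 2 higher, with LTV1 and NCL added to the lower genes and WDR12 to the higher ones. Without untreated replicate 2, 12 members were lower, and without untreated replicate 3, 14, with large subunit genes at 4 in each case. Calls over all genes fell in the same fits, to 1837 and 1795 lower, against 2576 with all libraries. The calls of POLR1B, DKC1, PES1, BOP1, RRS1, DDX21 and MYBBP1A were lost without either of these libraries, and those of RRN3 and UTP20 without untreated replicate 2. Those of POLR1B, PES1 and DDX21 were also lost without untreated replicate 1. When libraries were scaled by the total of ERCC spike-ins, synthetic RNAs added in known amounts, no member passed (7 genes lower and 129 higher in all). The ERCC share of counts was 0.315%, 0.752% and 0.734% in APX2009 replicates 1 to 3 and 0.48% to 0.564% in untreated libraries. Total RNA per cell and the number of cells cannot be told apart in such data. With that scaling the median log2 change was -0.11 in members and 0.08 in all genes.

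**Figure D2:**
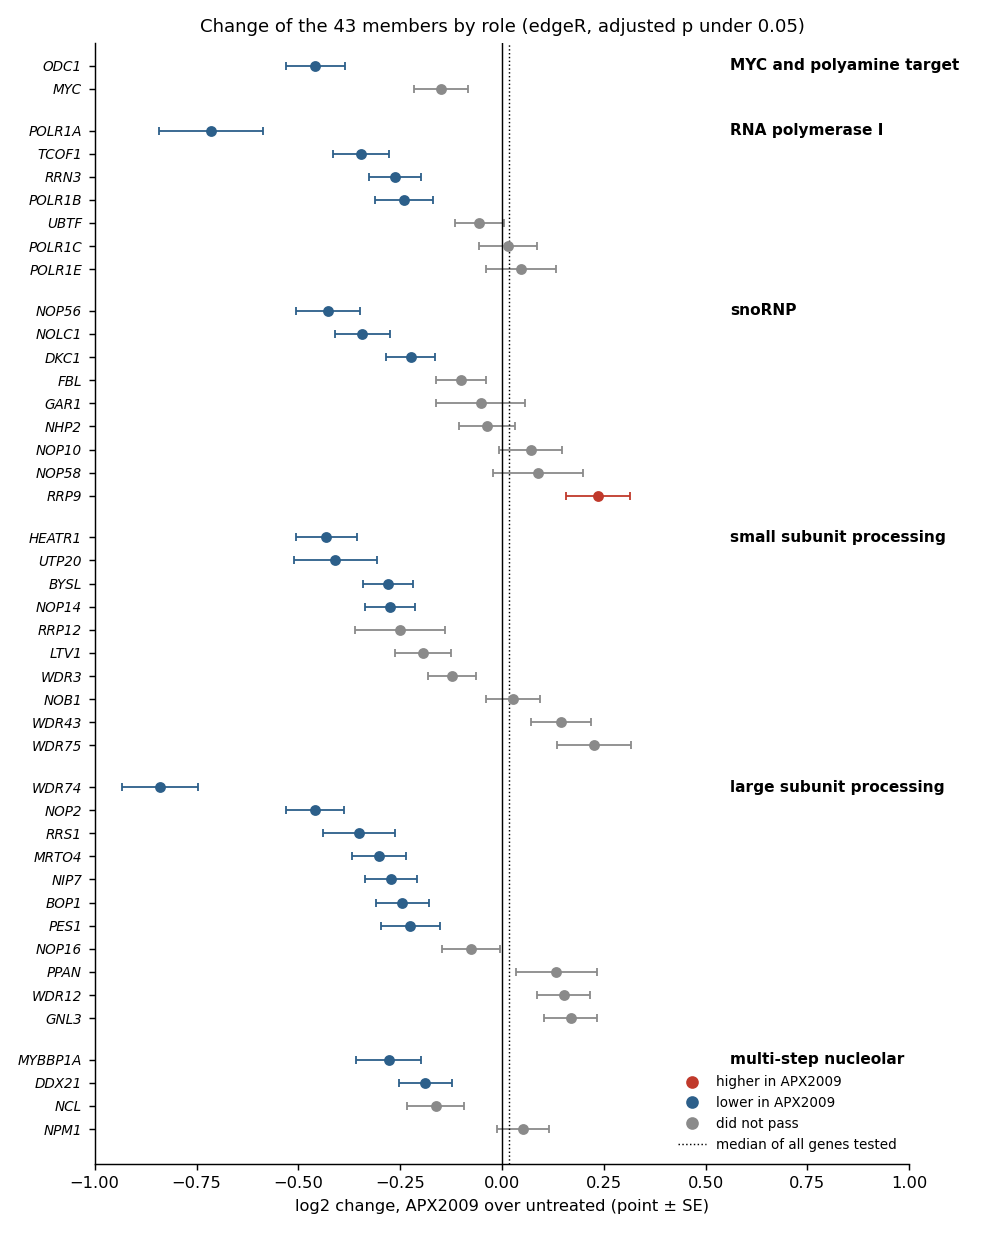
Log2 change with its SE for each of the 43 members, APX2009 over untreated, ordered within 6 roles. Blue points are lower, the red point (RRP9) is higher, grey points did not pass, and the dotted line is the median of all genes tested at 0.02. WDR74 and POLR1A lie farthest from 0, and each of the larger roles holds both lower and unpassed genes.

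MYC itself (ENSG00000136997, chromosome 8, 127735434 to 127741434) stayed highly expressed. Its level, as counts scaled to one fixed library total with TMM factors (CPM), was 309, 334 and 340.4 in APX2009 replicates 1 to 3 and 359, 368 and 365 in untreated replicates 1 to 3. All 3 treated values lay below all 3 untreated ones, but the change did not pass the test, at -0.15 ± 0.07 on the log2 scale (SE; adjusted p from edgeR = 0.103) and with a 95% interval of -0.30 to -0.0037 before adjustment. It passed under none of 15 other settings, whose log2 changes ran from -0.18 to -0.11. At 476 TPM in untreated cells, MYC had the third highest level per length of the 43 members, after NPM1 at 918 TPM and NCL at 585 TPM, and it was at 409 TPM in APX2009 cells.

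ODC1, the ornithine decarboxylase that starts polyamine synthesis and a classical MYC target, fell (ENSG00000115758, chromosome 2, 10439968 to 10448504). It was at 164, 179 and 192 CPM in APX2009 replicates and at 247, 239 and 249 CPM in untreated replicates. The groups were well apart, with a log2 change of -0.46 ± 0.07 (edgeR adjusted p = 0.00088), and ODC1 passed in 14 of 15 other settings, all but ERCC scaling. Other genes of polyamine metabolism split, with 3 of 9 higher (33.3%) and 2 lower (22.2%), against 17.2% and 17.4% of all genes. AZIN1, which codes for an inhibitor of antizyme, was 1.26-fold higher and OAZ1, antizyme, which targets ODC1 protein for degradation, was 1.31-fold higher. SMOX, spermine oxidase, was 1.51-fold lower (edgeR adjusted p = 0.00201, 0.00554 and 0.00119).

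MAX, which MYC needs to bind DNA, and MXD1 rose. MAX was at 113, 104 and 108 CPM in APX2009 cells and 78.9, 75.6 and 77.3 CPM in untreated cells, a log2 change of 0.49 ± 0.06 (edgeR adjusted p = 2.28e-04). MXD1, a repressor that pairs with MAX in place of MYC, was at 112, 91.9 and 110.4 CPM in APX2009 cells and 57.3, 64.2 and 63.1 CPM in untreated cells, 1.70-fold higher (edgeR adjusted p = 1.18e-04). FBXW7, part of a ubiquitin ligase that marks MYC for degradation, was 1.22-fold higher (edgeR adjusted p = 0.0301). Of 11 tested network partners 3 were higher (27.3%) and 1 lower (9.09%), against 17.2% and 17.4% of all genes. The lower one was MNT, another MAX partner that represses transcription, by 0.18 on the log2 scale (edgeR adjusted p = 0.049977). No partner was lower in 8 of 15 other settings, DESeq2, limma voom and total counts among them.

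Of the RNA polymerase I genes, POLR1A changed most. POLR1A codes for the largest catalytic subunit (ENSG00000068654, chromosome 2, 86020216 to 86106155) and was at 85.4, 117 and 120.3 CPM in APX2009 cells and 154, 190.2 and 184 CPM in untreated cells. Replicate 1 was the lowest in each group, and the groups did not overlap. The log2 change was -0.71 ± 0.13 (edgeR adjusted p = 0.00182), and -0.57 without APX2009 replicate 1. POLR1B, the second catalytic subunit, was at 41.2, 46.0 and 47.9 CPM in APX2009 cells and 53.0, 53.9 and 52.6 CPM in untreated cells, a log2 change of -0.24 ± 0.07 (edgeR adjusted p = 0.0231).

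The subunits POLR1C, which RNA polymerase III also uses, and POLR1E did not pass. POLR1C averaged 34.3 ± 1.00 CPM in APX2009 cells and 34.0 ± 1.89 CPM in untreated cells (SD, n = 3), with a 95% interval for the log2 change of -0.14 to 0.17. Genes on the opposite strand overlap 18.2% of POLR1C exon bases. POLR1E averaged 27.2 ± 2.60 and 26.3 ± 0.856 CPM in APX2009 and untreated cells, with an interval of -0.14 to 0.24. Of the factors that load the polymerase, RRN3, which connects it to the promoter, was 1.20-fold lower and TCOF1, treacle, which works with UBTF, was 1.27-fold lower (edgeR adjusted p = 0.00971 and 0.00317). TCOF1 was at 117, 132 and 128 CPM in APX2009 cells and 154, 165 and 159 CPM in untreated cells, with no overlap. UBTF, the factor that keeps ribosomal DNA open, averaged 106 ± 4.76 CPM in APX2009 cells and 109.6 ± 1.72 CPM in untreated cells, and its groups overlapped (edgeR adjusted p = 0.515).

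The polymerase's other subunits and factors had a median log2 change of 0.18, opposite in sign to the -0.24 of the member role. Of these genes 28.6% had a negative log2 change, against 48.2% of all genes tested. Of 14 tested, 6 were higher and 2 lower, a share of higher genes of 42.9% against 17.2% of all genes, which dropped to 2 genes without untreated replicate 2 or 3. POLR1G, a subunit particular to RNA polymerase I, was 1.67-fold lower, at 7.98, 6.76 and 7.57 CPM in APX2009 cells and 11.8, 13.1 and 12.3 CPM in untreated cells. POLR2L, shared by all 3 nuclear polymerases, was 1.35-fold lower, and TTF1, the transcription termination factor of RNA polymerase I, was 1.44-fold higher (edgeR adjusted p = 7.37e-04, 0.00134 and 0.00195).

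**Figure D3:**
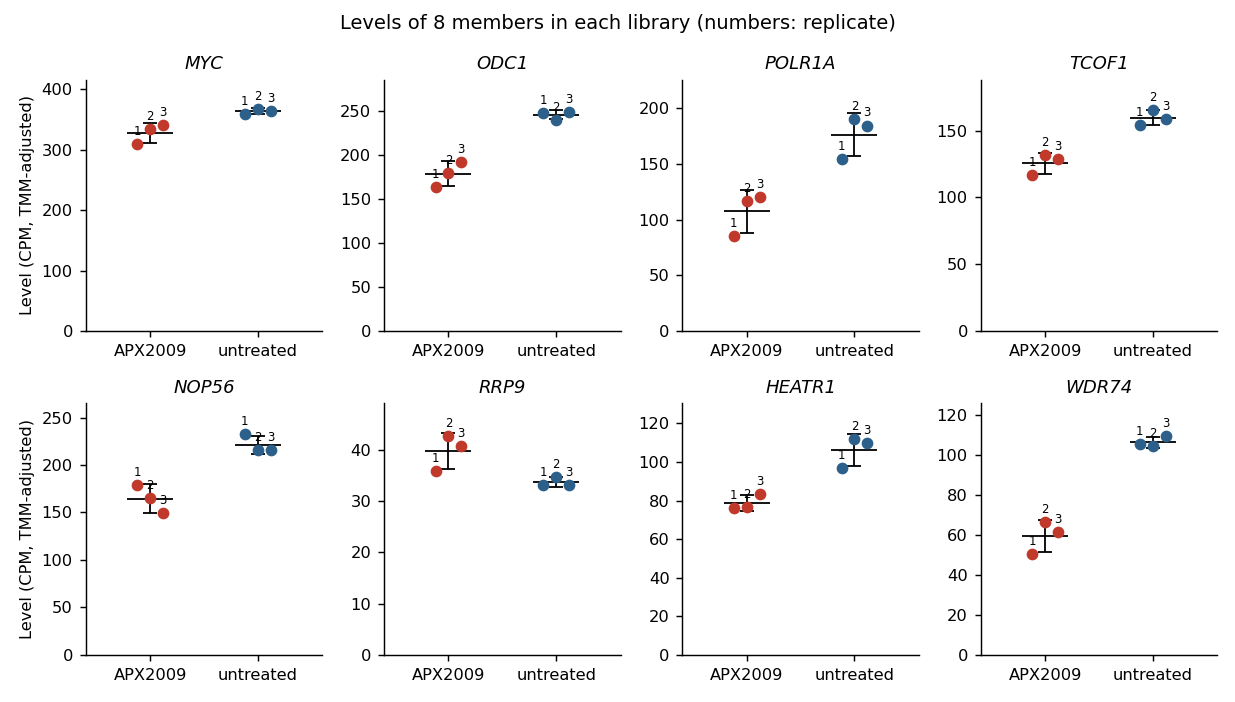
Level of 8 members in each library in CPM, APX2009 on the left and untreated on the right, with the replicate number at each point and bars for mean and SD (n = 3). The groups do not overlap in any of the 8, RRP9 is higher with APX2009 and the other 7 are lower, though MYC did not pass the test. All 22 members that passed had groups apart, so for every gene shown but MYC this followed from choosing it. Over all tested genes 49.4% had groups apart.

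Genes of snoRNP proteins had the median log2 change nearest 0 of the 5 larger roles. NOP56, a core protein of box C/D snoRNPs, which guide methylation of ribosomal RNA (ENSG00000101361, chromosome 20, 2652145 to 2658393), was at 179, 165 and 149 CPM in APX2009 cells and 232, 216 and 215 CPM in untreated cells. Its log2 change was -0.43 ± 0.08 (edgeR adjusted p = 0.00212). Its partner NOP58 was at 156, 115 and 114 CPM in APX2009 cells and 123, 121 and 119 CPM in untreated cells. APX2009 replicate 1 lay above the untreated values and replicates 2 and 3 below them, and NOP58 did not pass (edgeR adjusted p = 0.568). Without that library its log2 change of 0.09 became -0.08. FBL, fibrillarin, the methyltransferase of this particle, averaged 147 ± 6.55 CPM in APX2009 cells and 158 ± 3.15 CPM in untreated cells and did not pass (edgeR adjusted p = 0.236).

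In box H/ACA snoRNPs, which guide pseudouridylation, DKC1, the enzyme dyskerin, fell. It was at 225, 218 and 229 CPM in APX2009 cells and 255, 265 and 266 CPM in untreated cells, a log2 change of -0.22 ± 0.06 (edgeR adjusted p = 0.017). Its partners NHP2, NOP10 and GAR1 overlapped between groups, with log2 changes of -0.04, 0.07 and -0.05. NOLC1, a snoRNP chaperone and the most abundant member of this role per length at 433 TPM in untreated cells, was at 341, 342 and 352 CPM in APX2009 cells and 411, 455 and 447 CPM in untreated cells (log2 change -0.34 ± 0.07, edgeR adjusted p = 0.00311).

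RRP9 was the only member to pass the test as higher. It codes for a protein of the snoRNP that guides early cleavage of the precursor. Its values were 35.9, 42.7 and 40.7 CPM in APX2009 cells and 33.2, 34.8 and 33.2 CPM in untreated cells, without overlap. The log2 change was 0.24 ± 0.08 (edgeR adjusted p = 0.0396), and it was called in 8 of 15 other settings, with neither DESeq2 nor an adjusted p under 0.01. The call was lost without any 1 of the untreated libraries, and without APX2009 replicate 2 or 3. Among other snoRNP assembly factors 1 of 11 was higher (9.09%) and 2 were lower (18.2%), against 17.2% and 17.4% of all genes. ZNHIT3 was 1.35-fold higher, and the paired helicases RUVBL2 and RUVBL1 were 1.23-fold and 1.15-fold lower (edgeR adjusted p = 0.0027, 0.00971 and 0.0277).

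In small subunit processing HEATR1 and UTP20 had the largest decreases, and which of them was larger changed with the library left out. HEATR1, a large scaffold protein that joins early transcription to processing, was at 76.3, 76.6 and 83.6 CPM in APX2009 cells and 96.9, 112 and 109.8 CPM in untreated cells. The groups were apart, with a log2 change of -0.43 ± 0.07 (edgeR adjusted p = 0.00149). LGALS8 overlaps 23.2% of HEATR1 exon bases on the opposite strand. UTP20, a scaffold of the same particle with the lowest level per length of all members at 13.9 TPM in untreated cells, was at 27.4, 28.2 and 24.3 CPM in APX2009 cells and 30.8, 39.7 and 35.7 CPM in untreated cells (log2 change -0.41 ± 0.10, edgeR adjusted p = 0.0109). BYSL and NOP14, assembly factors of the small subunit, were each 1.21-fold lower (edgeR adjusted p = 0.0055 and 0.0062).

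The other 6 small subunit genes did not pass. WDR43 and WDR75, which belong with HEATR1 to the subcomplex that binds the precursor first, had log2 changes of 0.14 ± 0.07 and 0.23 ± 0.09 (edgeR adjusted p = 0.156 and 0.0826). WDR43 was at 125, 107 and 108 CPM in APX2009 cells and 100.2, 104 and 103 CPM in untreated cells, with the highest value in APX2009 replicate 1, and its log2 change was 0.06 without that library. That of WDR75 was 0.12 without it, and WDR75 was higher in 3 of 15 other settings (no filter, the replicate number as a block, and without APX2009 replicate 3). RRP12, an export factor, was at 94.3, 125 and 131 CPM in APX2009 cells and 131, 144 and 142 CPM in untreated cells, and LTV1, another export factor, averaged 28.1 ± 0.784 CPM in APX2009 cells and 32.1 ± 1.11 CPM in untreated cells (edgeR adjusted p = 0.104 and 0.0522). Both lay wholly below the untreated values, RRP12 only narrowly. LTV1 passed without APX2009 replicate 1 (edgeR adjusted p = 0.0259), and RRP12 was lower in 3 of 15 other settings. WDR3 also lay below, with a log2 change of -0.12, and NOB1, the nuclease of the last cleavage, averaged 112 ± 5.72 CPM in APX2009 cells and 109 ± 4.42 CPM in untreated cells.

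Large subunit processing held WDR74, the member that changed most. WDR74 works with a nuclear ATPase in large subunit maturation (ENSG00000133316, chromosome 11, 62832342 to 62841809) and was at 50.7, 66.6 and 61.4 CPM in APX2009 cells and 105, 105 and 109 CPM in untreated cells. Its log2 change was -0.84 ± 0.09 (edgeR adjusted p = 1.00e-04), and -0.74 without APX2009 replicate 1. Of its exon bases 10.1% are shared with RNU2-2P and TEX54 on the same strand, and reads there cannot be assigned with certainty. NOP2, a methyltransferase of large subunit ribosomal RNA, was at 70.6, 79.3 and 83.2 CPM in APX2009 cells and 104, 108 and 108 CPM in untreated cells (log2 change -0.46 ± 0.07, edgeR adjusted p = 8.49e-04). An unnamed gene, AC006064.6, overlaps 54.4% of NOP2 exon bases on the same strand.

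RRS1, which brings in a part of the large subunit that holds its smallest RNA, was 1.27-fold lower. MRTO4 and NIP7, assembly factors of the large subunit, were 1.23-fold and 1.21-fold lower (edgeR adjusted p = 0.0119, 0.00609 and 0.00858). RRS1 had 42.5, 35.7 and 38.6 CPM in APX2009 cells and 44.8, 53.8 and 50.2 CPM in untreated cells. An unnamed gene, AC009879.2, overlaps 11.4% of RRS1 exon bases on the same strand. PES1, BOP1 and WDR12 form the PeBoW complex of precursor processing, and PES1 and BOP1 passed while WDR12 did not. PES1 and BOP1 were 1.17-fold and 1.18-fold lower (edgeR adjusted p = 0.0344 and 0.0159). WDR12 was at 44.3, 46.1 and 48.5 CPM in APX2009 cells and 40.3, 41.6 and 43.1 CPM in untreated cells, wholly above them, and did not pass (edgeR adjusted p = 0.0998), but was higher without APX2009 replicate 1 (log2 change 0.18, edgeR adjusted p = 0.0373).

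GNL3, nucleostemin, also lay wholly above the untreated values, at 101, 96.8 and 90.2 CPM in APX2009 cells and 85.3, 83.2 and 88.4 CPM in untreated cells, without passing (edgeR adjusted p = 0.0724), except without APX2009 replicate 3 (0.0337). PPAN averaged 10.5 ± 0.139 CPM in APX2009 cells and 9.60 ± 0.154 CPM in untreated cells (SD, n = 3). The readthrough gene PPAN-P2RY11 and P2RY11 cover 59.8% of PPAN exon bases, so the PPAN counts are uncertain. NOP16 did not pass, with a log2 change of -0.08 (edgeR adjusted p = 0.444).

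NPM1 and NCL, the multi-step nucleolar genes with the most abundant mRNA, did not pass with all libraries. NPM1, nucleophosmin, a chaperone of ribosome assembly, was at 898, 949 and 940.3 CPM in APX2009 cells and 878, 903 and 906 CPM in untreated cells. Its log2 change was 0.05 ± 0.06, with a 95% interval of -0.09 to 0.20, and its 45 annotated pseudogenes make its counts uncertain. NCL, nucleolin, was at 980.5, 895 and 892 CPM in APX2009 cells and 999.8, 1055 and 1044 CPM in untreated cells. It lay wholly below and did not pass with all libraries (log2 change -0.16, edgeR adjusted p = 0.0957), but passed without APX2009 replicate 1 (-0.21, edgeR adjusted p = 0.00361). DDX21, an RNA helicase of transcription and processing, was 1.14-fold lower (edgeR adjusted p = 0.0463), and MYBBP1A, a nucleolar protein that restrains RNA polymerase I, was 1.21-fold lower (edgeR adjusted p = 0.0214). DDX21 passed in 6 of 15 other settings.

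Subunits of one complex differed in whether they passed, so ratios of counts within complexes were compared. Such ratios do not depend on how libraries are scaled. The 5 complexes were chosen after the members' values were seen, and the 21 pairs in them were compared by a two-sided exact permutation test over 3 against 3 libraries, whose smallest p is 0.1. In 13 of 21 pairs the APX2009 and untreated ratios did not overlap (exact permutation p = 0.1, adjusted p = 0.162 over the 21 pairs), and in 14 without APX2009 replicate 1. A design of 3 against 3 could not have passed, and 49.4% of single genes were already apart, so this count is a description of pairs chosen for how their members behaved. The log2 ratio of POLR1A to POLR1C was 1.36, 1.75 and 1.78 in APX2009 replicates and 2.19, 2.56 and 2.36 in untreated replicates, a difference of -0.74. The log2 ratio of HEATR1 to WDR75 was 0.69 ± 0.26 in APX2009 cells and 1.34 ± 0.16 in untreated cells, and that of NOP56 to NOP58 was 0.37 ± 0.16 and 0.87 ± 0.04 in APX2009 and untreated cells (SD, n = 3). BOP1 to WDR12 was 1.85 ± 0.08 in APX2009 cells and 2.25 ± 0.06 in untreated cells. PES1 to BOP1 overlapped, at -0.51 ± 0.06 in APX2009 cells and -0.53 ± 0.04 in untreated cells.

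**Figure D4:**
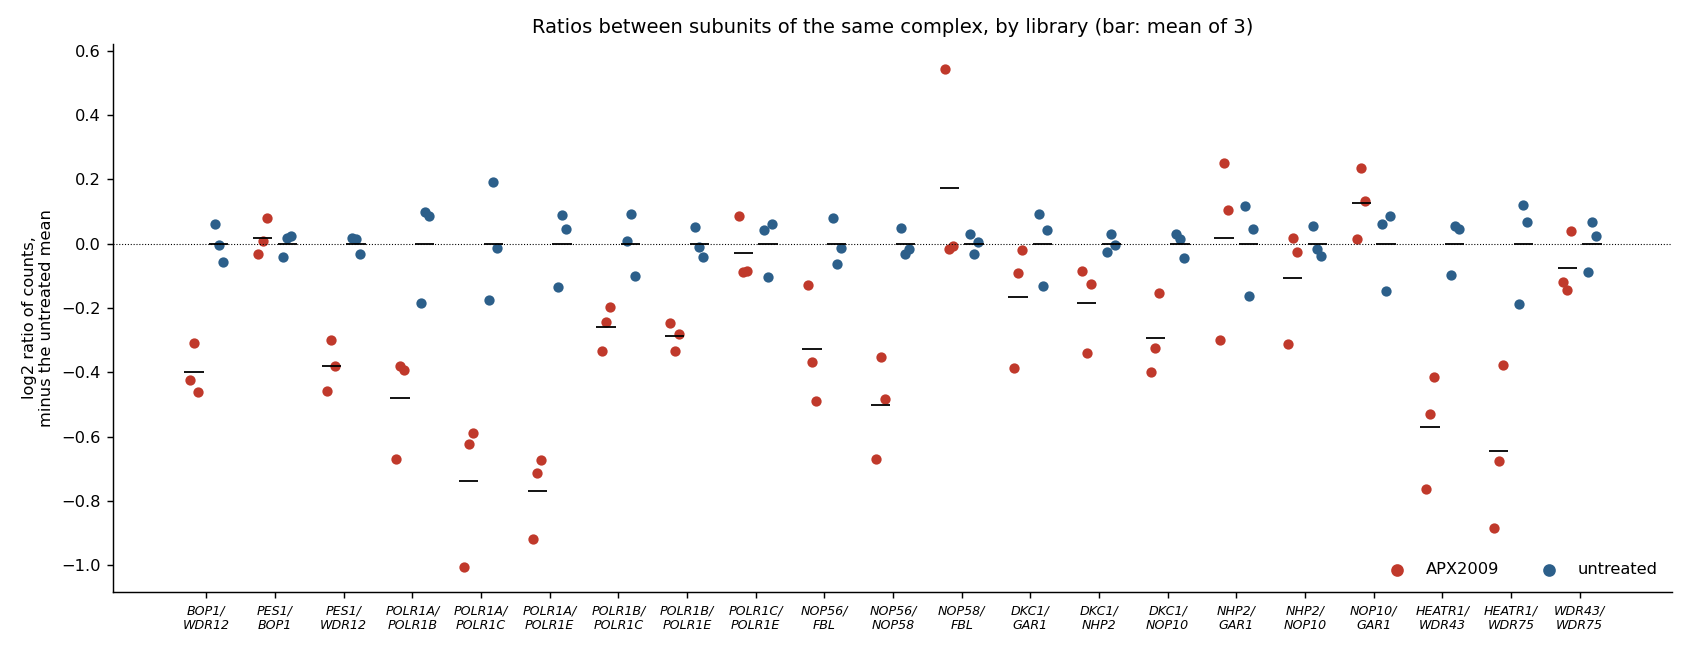
Log2 ratio of counts between subunits of one complex in each library, set to a mean of 0 in untreated libraries, with APX2009 (red) left of untreated (blue) and a bar at each mean (n = 3). All 21 pairs are drawn, and the groups do not overlap in 13 of them.

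Members with snoRNA genes between their start and end on the same strand were a mixed group. There were 8 (ODC1, NOP56, NOP58, DKC1, WDR43, PPAN, GNL3 and NCL), of which 3 were lower, with a median log2 change of -0.04. Among the other 35, 18 were lower, with a median of -0.23 (-0.225). Over all tested genes 17.4% were lower, and these sets of members were not tested against each other. The gap narrowed without APX2009 replicate 1, where the medians were -0.15 and -0.18. Members with longer exons tended to have lower log2 changes, with a Spearman correlation across the 43 genes of -0.33, or -0.27 without APX2009 replicate 1, against -0.06 over 14726 tested genes. These are descriptions across genes, which share the same 6 libraries.

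Other assembly factors of the pathway were lower at shares near that of all genes. Of 36 tested small subunit factors 7 were lower (19.4%) and 4 higher (11.1%), and of 41 large subunit factors 9 were lower (22%) and 4 higher (9.76%). Of all genes 17.4% were lower and 17.2% higher. Median log2 changes were -0.08 and -0.09. NAT10, an acetyltransferase of small subunit ribosomal RNA, was 1.30-fold lower, and NOC4L and TSR1, assembly factors of that subunit, were 1.48-fold and 1.23-fold lower (edgeR adjusted p = 0.00235, 0.00398 and 0.00478). The large subunit factors URB1, RRP1 and URB2 were 1.40-fold, 1.29-fold and 1.36-fold lower (edgeR adjusted p = 0.00152, 0.00162 and 0.00221). Both counts of lower genes moved with single libraries, to 3 small and 5 large subunit factors without untreated replicate 2 or 3, and to 4 and 5 without APX2009 replicate 2. Without APX2009 replicate 1, 13 large subunit factors were lower and 6 higher.

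Of 13 genes of the RNA exosome, which trims ribosomal RNA precursors, and its cofactors, 3 were lower (23.1%, near the 17.4% of all genes) and none higher. EXOSC8 averaged 21.7 ± 1.41 CPM in APX2009 cells and 37.5 ± 1.77 CPM in untreated cells (SD, n = 3), 1.72-fold lower (edgeR adjusted p = 5.05e-05), and EXOSC5 and EXOSC10 were 1.39-fold and 1.25-fold lower (edgeR adjusted p = 0.00578 and 0.00457). Of 12 tested MYC targets outside the pathway, 4 were lower (33.3%, against 17.4% of all genes) and 2 higher (16.7%, against 17.2%). CAD, the enzyme that opens pyrimidine synthesis, was 1.44-fold lower (edgeR adjusted p = 0.00262), while HSPD1 and HSPE1, mitochondrial chaperones, were 1.36-fold and 1.54-fold higher (edgeR adjusted p = 8.65e-04 and 5.62e-04).

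Cytosolic ribosomal protein genes, the final parts of the ribosome, rarely passed the test. Of 79 tested, 1 was lower (1.27%) and 7 were higher (8.86%), both under the shares of all genes, with a median log2 change of 0.07. Their mean log2 difference from the untreated mean was 0.17 in APX2009 replicate 1, against 0.040 and 0.0059 in APX2009 replicates 2 and 3. RPL5, which with RPL11 can hold back MDM2, was at 1344, 1259.9 and 1293 CPM in APX2009 cells and 979.7, 991 and 1013 CPM in untreated cells, 1.31-fold higher (edgeR adjusted p = 0.00132), and RPL17 and RPL9 were 1.33-fold and 1.20-fold higher (edgeR adjusted p = 0.00426 and 0.0127). These counts depend on single libraries, with 7 lower and 14 higher without APX2009 replicate 1, and 2 higher without any 1 of the untreated libraries. Reads of these genes can be shared with their many pseudogenes.

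**Figure D5:**
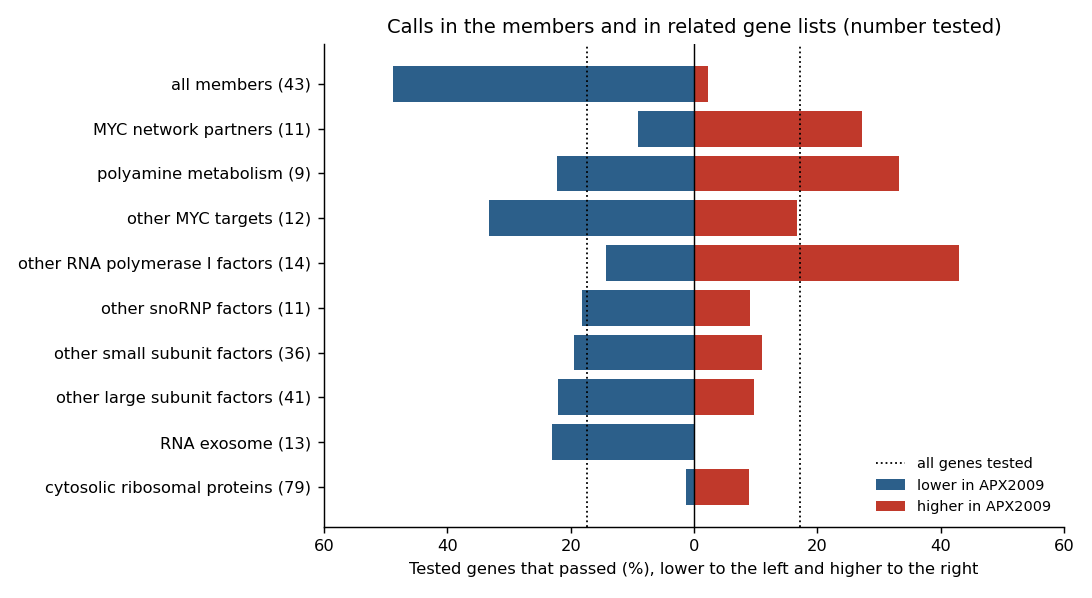
Share of tested genes that were lower (blue, to the left) or higher (red, to the right) in APX2009 cells, for the 43 members and 9 related gene lists, with the number tested in brackets and dotted lines at the shares of all genes tested (17.4% lower and 17.2% higher). The members have the largest lower share of the 10 groups drawn, and ribosomal protein genes fall under both lines. Members and lists were chosen with earlier results of these data known, so their order can follow from that choice.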

How the data were processed

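RNA sequencing libraries of OE33 cells, 3 with APX2009 and 3 untreated, were grouped by the sample titles, and table columns were tied to samples by library name. The authors deposited unnormalized counts, as integers, for 58051 Ensembl genes and 92 ERCC transcripts. GRCh38, Trimmomatic 0.36, STAR 2.5.2b, Subread 1.5.2 and featureCounts are named per the submitters' processing notes. Neither the annotation release nor the strand setting is given in the sources used here, and reads of antisense or overlapping genes may therefore be mixed. For example, genes on the same strand share 34.8% of LTV1 exon bases. Genes on the opposite strand share 27.4% of NHP2, 20.2% of NIP7 and 17.1% of NOP14 exon bases.

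Symbols, positions and exon lengths came from GENCODE 29 (GRCh38), which matched 57447 IDs; unmatched IDs held 0.0348% of gene counts. ERCC rows were kept out of library sizes. In R 4.3.3, edgeR 4.0.16 was used to drop low genes (filterByExpr defaults), scale by TMM and run its quasi-likelihood test on treatment alone. The SE was derived from the F statistic, and 95% intervals from its degrees of freedom. CPM used TMM-adjusted library sizes, TPM used union exon length, and values after ± for CPM are SDs over 3 libraries. The fit was also run on simulated data with changes of 1.5-fold or more, which are larger than most changes of members. No pair of libraries in a group agreed within sampling noise (chi-square over its degrees of freedom, 3.06 to 30).

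Alternatives were RLE factors, total counts, ERCC totals, no filter, 1 CPM in 3 samples, DESeq2 1.42.0, limma 3.58.1 voom, each library left out, the replicate number as a block, an adjusted p under 0.01, and removal of mitochondrial genes with the 20 most counted. The members, the roles and the related lists were chosen with earlier results of these data known. The text names MYC, ODC1, every changed member, the most abundant and most shifted unpassed members of each role, and up to 3 genes per related list by p. MNT, the markers, TERT, POLR2F, PWP2 and the remaining members were named after their values were seen. Start site windows were RefSeq's (GRCh38.p14). Figures were drawn with matplotlib 3.10.9.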

Additional observations from a re-analysis of the deposited data

How the results depend on the processing

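RLE factors, total counts, 1 CPM in 3 samples, limma voom and removal of the most counted genes gave 20 or 21 members lower and 1 higher, within 1.5 times of the counts reported. An adjusted p under 0.01 left 13 members lower and 0 higher (1587 and 1470 of all genes). ERCC scaling left 0 lower and 0 higher (7 and 129 of all genes). Members higher were 0 with DESeq2, 2 with no filter and 2 with the replicate block. Leaving out 1 library gave 12 to 23 members lower and 0 to 2 higher (1795 to 2870 and 1708 to 2839 of all genes). No changed member turned direction under these settings. Log2 changes of members that had not passed turned sign with ERCC scaling in GAR1 (0.081), NHP2 (0.0035), NOP16 (0.0067) and UBTF (0.0072). Over the left-out libraries GAR1 ran from -0.179 to 0.035, NHP2 from -0.092 to 0.0079, NOB1 from -0.010 to 0.062, NOP58 from -0.079 to 0.17 and POLR1C from -0.014 to 0.060. The cause was not tested. Whether replicate numbers pair the libraries was not settled. Correlations of deviations were 0.14, 0.0782 and 0.00599 for same-numbered libraries and ran from -0.144 to 0.115 for the others. The replicate block gave 21 members lower, 20 of them among those reported (RRP12 in, DDX21 out), with 2744 lower and 2757 higher in all. Most changes of members were under 1.5-fold, and with 3 libraries per group the count of members that passed moved with single libraries.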

Other observations

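The counts of a few pathway genes were so low that they say little about the cells. POLR2F, a subunit shared by all nuclear RNA polymerases, had 3, 1 and 0 counts in APX2009 replicates and 2 in each untreated replicate. PWP2, a core protein of small subunit processing, had 3, 1 and 4 counts in APX2009 replicates and 4, 5 and 2 in untreated replicates. TERT, the telomerase gene and a known MYC target, had 3, 7 and 3 counts in APX2009 replicates and 14, 9 and 13 in untreated replicates, and was under the filter, so it was not tested.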
